A study of Mus musculus with 76 samples.

Results

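The 10 hypothalamic neuropeptide genes Pomc, Agrp, Npy, Avp, Oxt, Crh, Trh, Sst, Hcrt and Pmch were picked by name from the 56923 gene IDs counted in each RNA library of the mouse diencephalon. The rule itself used no measured value, but the genes were chosen with earlier results of these data known. The libraries came from C57BL/6J embryos that were either wild type or homozygous for a humanized hs754 locus, in which a human enhancer sequence replaced its mouse ortholog on chromosome 13 in every cell of the embryo. RNA was sequenced at 2 embryonic stages, E11.5 and E17.5 (days after conception), with 4 replicates for each genotype and stage. Each replicate was a pool of litter mates, 6 embryos at E11.5 and 3 at E17.5, so the spread between replicates is a spread between pools and not between animals. H3K4me3, H3K27ac and H3K27me3 were mapped by ChIP-seq in each genotype, with 2 replicates from the earlier stage and 3 from the later, and CTCF in 3 replicates of E17.5 alone. None of the 10 genes lies on chromosome 13.

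Neuropeptide genes encode precursor proteins that are cut into small secreted peptides inside dense-core granules, and in the hypothalamus, the ventral part of the diencephalon, each is made by small and separate groups of neurons. Avp and Oxt encode vasopressin and oxytocin, which neurons of the paraventricular and supraoptic nuclei release into the blood. Crh, Trh and Sst encode corticotropin-releasing hormone, thyrotropin-releasing hormone and somatostatin, which control the pituitary. Pomc and the pair Agrp and Npy act in opposite directions on feeding from the arcuate nucleus, and Hcrt (hypocretin, also called orexin) and Pmch (melanin-concentrating hormone) are made by neurons of the lateral hypothalamus that act on arousal and feeding. In whole tissue, fewer neurons of a type and less RNA per neuron cannot be told apart.

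The libraries held 16414369 to 24272569 reads assigned to genes, and a single wild type library stood apart. In wild type replicate 1 at E17.5, the median gene deviated from the other libraries of its group by 0.843 on the log2 scale, against 0.131 to 0.377 in the other 15 libraries. In it 39.9% of genes deviated by more than 1. This library was the highest of its group for 6 of the 10 neuropeptide genes and the lowest for 3. The summed level of 11 hypothalamus markers was 354 in counts-per-million units (CPM) in it, against 199 to 224 in the other wild type libraries and 216 to 242 in the humanized libraries of E17.5. It was also highest of its group for telencephalon markers (184 CPM against 140 to 148) and pituitary markers (43.1 against 28.4 to 34.5). Its thalamus and prethalamus sum was highest by little (1855 against 1554 to 1852). For midbrain and hindbrain markers it was not the highest (33.2 against 20.3 to 36.5). The part of this in the levels below was not tested, and values that rest on this library are given with and without it. The marker sum was 69.7 to 135 CPM at E11.5, and 10 of the 11 markers averaged at least 1 CPM at E17.5. The labels name the diencephalon as a whole, and markers of hypothalamus were thus detected in it. Thalamus and prethalamus markers summed to 925 to 1657 CPM at E11.5 and 1554 to 1998 CPM at E17.5, and telencephalon markers to 38.8 to 54.4 CPM and then 140 to 184 CPM. Midbrain and hindbrain markers summed to at most 25.4 CPM at E11.5 and at most 36.5 CPM at E17.5. Of the 14 pituitary markers, the hormone genes Prl, Cga and Fshb were at 0 in all 16 libraries. Other hormone genes had a few reads at E17.5. Lhb, Tshb and Gh averaged 0.45, 0.156 and 0.199 CPM in the wild type, and 0.536, 0.18 and 0.0133 CPM in the humanized mice. At that stage 9 of the 14 markers were above 0 in the wild type and 10 in the humanized mice, and 2 averaged at least 1 CPM in each.

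The DNA just before each gene start was read from GRCm39, the build of the peak lists, to show how unlike these promoters are. Of 21757 protein-coding genes, 5.55% held the TATA box letters TATAAA on either strand in the 100 bases before the start, and 3 of the 10 members did, Pmch, Hcrt and Pomc. The lines below give the 100 bases before the start of these 3 genes, and of Trh as a stretch rich in CpG, from 5′ to 3′ on the strand of the gene, with TATAAA in capitals. They lie at chr10:87926833-87926932 (Pmch, plus strand), chr11:100653763-100653862 (Hcrt, minus strand), chr12:4004844-4004943 (Pomc, plus strand) and chr6:92221632-92221731 (Trh, minus strand).
Pmch: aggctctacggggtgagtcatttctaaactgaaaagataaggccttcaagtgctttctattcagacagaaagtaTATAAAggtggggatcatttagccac
Hcrt: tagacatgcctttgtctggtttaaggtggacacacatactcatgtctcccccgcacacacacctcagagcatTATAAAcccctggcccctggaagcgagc
Pomc: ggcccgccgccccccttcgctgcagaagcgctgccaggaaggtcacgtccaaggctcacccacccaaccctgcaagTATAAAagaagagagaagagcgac
Trh: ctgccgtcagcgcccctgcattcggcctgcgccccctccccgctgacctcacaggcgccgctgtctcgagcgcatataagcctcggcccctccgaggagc
In Pmch, Hcrt and Pomc the TATA letters began 26, 28 and 24 bases before the start. Only these exact letters were searched for, and the stretch of Trh holds tataag, which differs in the last letter. The stretch of Trh held 11 CpG dinucleotides and that of Pmch 1. Within 500 bases on either side of the start, GC content reached 50% together with an observed over expected CpG ratio of 0.6 at 46.1% of protein-coding genes and at 1 member, Npy (GC content 62.5%, ratio 0.626). The lowest ratios were 0.13 at Agrp and 0.183 at Hcrt, and the lowest GC content was 35.2% at Pmch.

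Over all genes tested in the wild type, 29.0% were called higher at E17.5 than at E11.5 and 26.7% lower, by edgeR's quasi-likelihood test with a Benjamini-Hochberg adjusted p under 0.05. In the humanized libraries 38.2% were called higher. Of the 10 members, 8 passed the filter on low counts in the wild type and 7 in the humanized mice. Pomc, Npy, Trh and Sst had enough counts at E11.5 to pass on that stage alone, whereas Avp, Crh and Pmch passed through their E17.5 libraries, so that the number of members called is given as an account and not as a measure of how often such genes rise. In the wild type 7 of the 8 were called, all higher at E17.5, with Agrp the exception. In the humanized mice 6 of the 7 were called, all higher at E17.5, with Pomc the exception. Without wild type replicate 1 of E17.5, a fit added once the data were known, those 7 genes were again called in the wild type, beside 36.0% of all genes tested called higher.

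**Figure D1:**
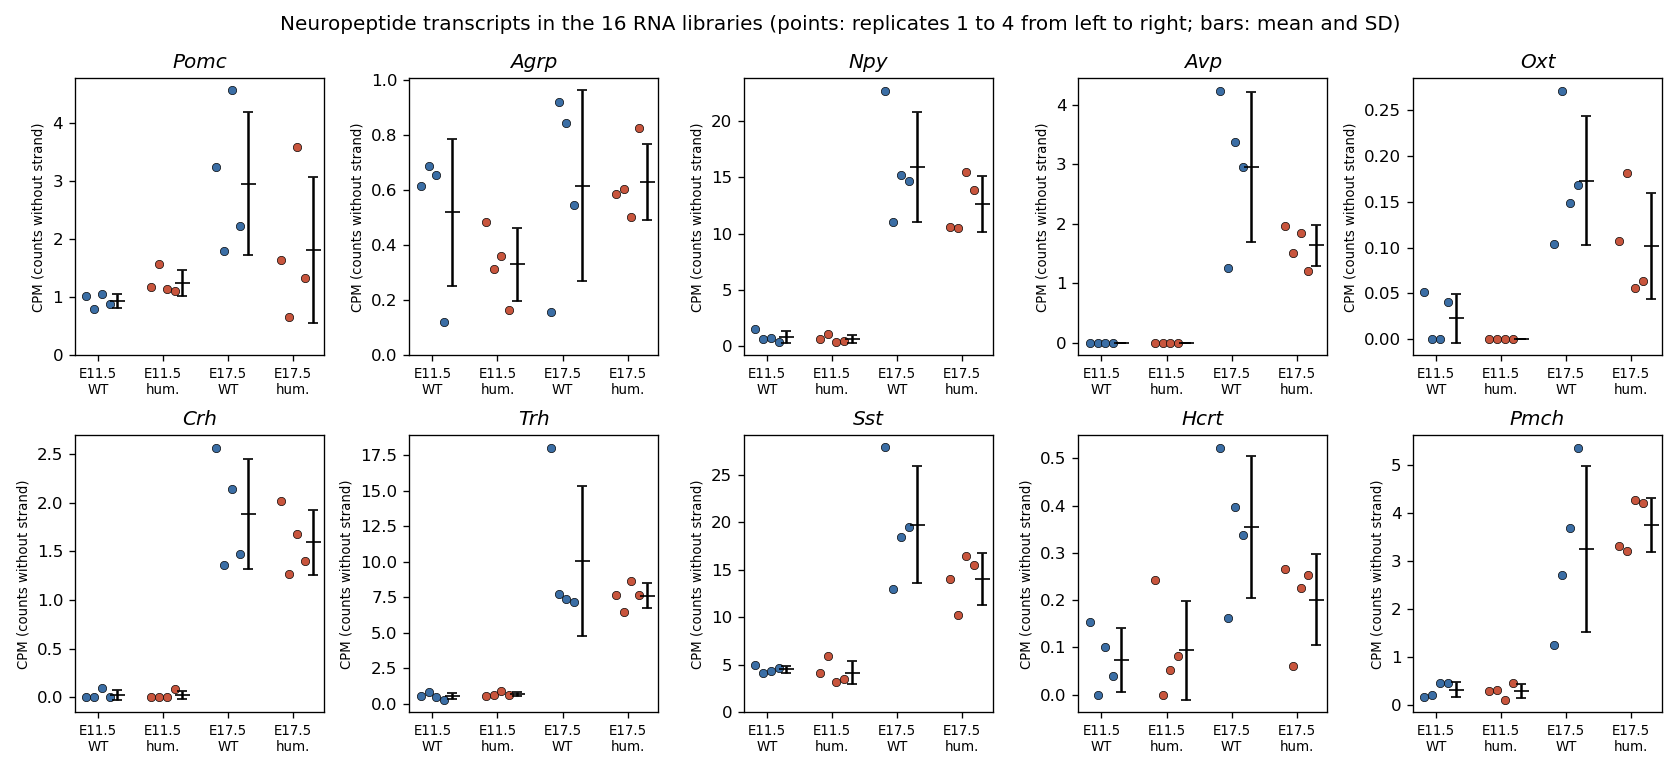
Level of each neuropeptide gene in the 16 RNA libraries, in CPM (reads counted without regard to strand), with 1 point per library in the order of the replicates and the mean and SD (n = 4) beside each group; each panel has its own linear axis. Avp and Crh sit at or next to 0 at E11.5 in both genotypes, while in Trh a single wild type library at 18 CPM stands above all other E17.5 libraries (6.48 to 8.64 CPM).

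Avp, which encodes the precursor of vasopressin (chr2:130422540-130424640, minus strand), went from no reads to a moderate count. No library of E11.5 held a read on Avp. At E17.5 the counts were 81, 23, 68 and 70 in the wild type replicates 1 to 4 and 37, 25, 33 and 19 in the humanized ones. The groups of the 2 stages did not overlap in either genotype. With a floor of 3 counts over the 4 libraries of E11.5, Avp was at least 82.1-fold higher at E17.5 in the wild type and at least 47.9-fold higher in the humanized mice, and edgeR's adjusted p was 8.75e-05 and 3.74e-06. These bounds and the intervals of count ratios given below cover counting error only.

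Oxt, the oxytocin gene, lies tail to tail with Avp (chr2:130418091-130418974, plus strand) and was near the limit of detection. Wild type counts of E11.5 were 1, 0, 0 and 1, and those of E17.5 were 2, 5, 3 and 4. Humanized counts were 0 in all libraries of E11.5, and 2, 3, 1 and 1 reads were found in those of E17.5. The stages did not overlap in either genotype, but every value rested on 5 reads or fewer. Oxt did not pass the filter on low counts, and an exact two-sided permutation test of the CPM gave p = 0.0286 in each genotype, the smallest that 4 against 4 allows. The ratio of summed counts was 7.12 in the wild type (95% counting interval 1.64 to 64.6) and at least 2.94 against the floor in the humanized mice. Fitted with no filter on low counts, Oxt had an adjusted p of 0.079 in the wild type and 0.0285 in the humanized mice by edgeR, and DESeq2 gave 0.0798 and 0.0839.

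Among the genes of hormones that control the pituitary, Crh rose from almost nothing. Wild type counts of Crh (chr3:19747565-19749655, minus strand) went from 0, 0, 2 and 0 in the libraries of E11.5 to 49, 25, 43 and 35 in those of E17.5. Humanized counts were 0, 0, 0 and 2 and then 38, 21, 30 and 22. As for Avp, no library of E11.5 reached the level of any library of E17.5. The ratio of the summed counts was 77.3 in the wild type (95% counting interval 21 to 644) and 69.9 in the humanized mice (18.9 to 584). edgeR's adjusted p was 3.91e-05 and 2.47e-06.

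Trh, the gene of thyrotropin-releasing hormone (chr6:92219021-92221631, minus strand), was already detected at E11.5. Its counts there were 11, 16, 10 and 7 in the wild type and 12, 14, 18 and 16 in the humanized mice. At E17.5 they were 344, 142, 149 and 170 in the wild type and 144, 107, 154 and 121 in the humanized mice. Every library of E17.5 was above every library of E11.5, and wild type replicate 1 held more than double the level of any other library. The rise was 4.19 on the log2 scale in the wild type (SE 0.43, edgeR adjusted p = 1.82e-05) and 3.43 in the humanized mice (SE 0.21, adjusted p = 2.95e-08). Without wild type replicate 1 the wild type rise was 3.75 (SE 0.27), and its mean level at E17.5 went from 10.1 CPM ± 5.28 (SD, n = 4) to 7.42 ± 0.276 (SD, n = 3).

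Sst, which encodes somatostatin (chr16:23707321-23711733, minus strand), was well detected at both stages. At E11.5 its counts were 97, 79, 86 and 116 in the wild type and 86, 132, 61 and 86 in the humanized mice. At E17.5 the wild type held 534, 240, 373 and 464 and the humanized mice 263, 169, 294 and 243. The stages did not overlap in either genotype. The log2 rise was 2.11 in the wild type (SE 0.24, edgeR adjusted p = 4.00e-05), 1.88 without wild type replicate 1, and 1.73 in the humanized mice (SE 0.21, adjusted p = 1.04e-05). In CPM the wild type mean went from 4.55 ± 0.352 to 19.7 ± 6.14 (SD, n = 4 each).

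Of the arcuate feeding genes, Npy had the largest fitted rise. Neuropeptide Y counts (chr6:49799026-49806489, plus strand) at E11.5 were 30, 12, 13 and 8 in the wild type and 13, 24, 6 and 11 in the humanized mice. At E17.5 they were 435, 203, 305 and 349 in the wild type and 199, 173, 277 and 219 in the humanized mice. All libraries of E17.5 lay above those of E11.5. The log2 rise was 4.34 in the wild type (SE 0.43, edgeR adjusted p = 1.32e-05), 4.12 without wild type replicate 1, and 4.32 in the humanized mice (SE 0.29, adjusted p = 6.51e-08).

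Pomc, the precursor of melanocyte-stimulating hormone, ACTH and beta-endorphin (chr12:4004944-4010642, plus strand), was called between the stages in the wild type alone. Its counts at E11.5 were 20, 15, 21 and 22 in the wild type and 24, 35, 22 and 27 in the humanized mice. At E17.5 they were 62, 33, 92 and 53 in the wild type and 31, 11, 64 and 21 in the humanized mice. The wild type stages did not overlap, whereas in the humanized mice the library with 11 counts was below, and that with 64 counts above, all libraries of E11.5. The log2 change was 1.63 in the wild type (SE 0.33, edgeR adjusted p = 0.00192), 1.58 without wild type replicate 1, and 0.53 in the humanized mice (SE 0.41, adjusted p = 0.25). Without humanized replicate 3 of E17.5 the humanized value was -0.03. The difference between the genotypes in this change was -1.10 (SE 0.56, adjusted p = 0.462 by edgeR), so it did not pass the test. Pomc is also made by pituitary corticotrophs, whose factor Tbx19 was at 0.481 CPM ± 0.213 in the wild type and 0.261 ± 0.204 in the humanized mice at E17.5 (SD, n = 4 each), against 0.0521 ± 0.0602 and 0 at E11.5. The part of such cells in the Pomc counts was not tested.

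Agrp, which encodes the agouti-related peptide that blocks melanocortin receptors (chr8:106293326-106364065, minus strand), was not called in the wild type. Counts without strand at E11.5 were 12, 13, 13 and 3 in the wild type and 10, 7, 7 and 4 in the humanized mice. At E17.5 they were 3, 17, 17 and 13 in the wild type and 11, 10, 9 and 13 in the humanized mice. The wild type stages overlapped, with wild type replicate 1 of E17.5 and replicate 4 of E11.5 the lowest of their groups. The log2 change in the wild type was 0.26 (SE 0.59, edgeR adjusted p = 0.728), and 0.57 without wild type replicate 1. In the humanized mice, where Agrp did not pass the filter, an exact permutation test of the CPM gave p = 0.0286 without strand and p = 0.343 on the gene's own strand. Agrp passed the filter there in 5 fits that left out 1 library, with edgeR adjusted p from 0.036 to 0.152. It was called higher at E17.5 in those without humanized replicate 1 of E11.5 or replicate 3 of E17.5, and not in the others. DESeq2 (adjusted p = 0.134) and edgeR with no filter on low counts (adjusted p = 0.176) did not call it.

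The count without strand held few reads of Agrp itself. Only 37% of the reads over the gene at E11.5 and 25.9% at E17.5 were on the strand of Agrp, and the lncRNA gene Gm38250 overlaps it on the other strand. The gene model of Agrp also runs upstream of the start used here (106294930) to 106364065, and counts along it were not split by transcript. On its own strand Agrp had 0 to 11 counts per library at E11.5 and 0 to 7 at E17.5. Its onset was therefore not detectable at this depth.

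Among the genes of the lateral hypothalamus, strand changed the values of Pmch most. Pmch (chr10:87926933-87928237, plus strand) lies inside Parpbp, a gene of the minus strand, and a read that overlaps both is assigned to neither when strand is ignored. Without strand, counts of Pmch were 3, 4, 9 and 11 in the wild type and 6, 7, 2 and 11 in the humanized mice at E11.5. At E17.5 they were 24, 50, 74 and 127 in the wild type and 62, 53, 76 and 66 in the humanized mice. On the gene's own strand they were 0 in all wild type libraries and 2, 1, 0 and 1 in the humanized ones at E11.5, but 182, 296, 474 and 738 (wild type) or 434, 336, 371 and 402 (humanized) at E17.5. With strand the stages were further apart, the E17.5 counts summed to 6.08 times those without strand, and 507 reads of E11.5 fell on the opposite strand against 4 on that of Pmch. The wild type rise was at least 568-fold against the floor of 3 counts, and the humanized one 493-fold (95% counting interval 192 to 1811, from 4 counts at E11.5). Without strand the log2 rise was 3.31 in the wild type (SE 0.52, edgeR adjusted p = 0.000322), 3.56 without wild type replicate 1, and 3.61 in the humanized mice (SE 0.33, adjusted p = 7.57e-07). Wild type replicate 1, high for most members, was the lowest of its group for Pmch.

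Hcrt, the hypocretin gene (chr11:100651895-100653762, minus strand), was near the limit of detection. Counts without strand were 3, 0, 2 and 1 in the wild type and 5, 0, 1 and 2 in the humanized mice at E11.5. At E17.5 they were 10, 3, 8 and 8 in the wild type and 5, 1, 4 and 4 in the humanized mice. On the gene's own strand no wild type library of E11.5 held a read, the humanized ones held 0, 0, 1 and 0, and the libraries of E17.5 held 8, 3, 7 and 8 (wild type) or 5, 1, 4 and 4 (humanized). On that strand the stages did not overlap in the wild type, and in the humanized mice they met at 1 count. Of the 14 reads of E11.5, 13 were on the other strand, so the few reads without strand at that stage were nearly all not from Hcrt transcripts of the annotated direction. On its own strand Hcrt was at least 8.73-fold higher at E17.5 in the wild type, and 17.9-fold higher in the humanized mice (95% counting interval 2.72 to 756, from 1 count). Exact permutation tests on that strand gave p = 0.0286 in both genotypes, and without strand p = 0.0286 in the wild type and p = 0.2 in the humanized mice. Without a filter on low counts Hcrt was called in the wild type by edgeR (adjusted p = 0.0454) and by DESeq2 (adjusted p = 0.0336), and not in the humanized mice (adjusted p = 0.378 by both). Of the other 7 members, those with any reads had at least 97.4% of them on their own strand.

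**Figure D2:**
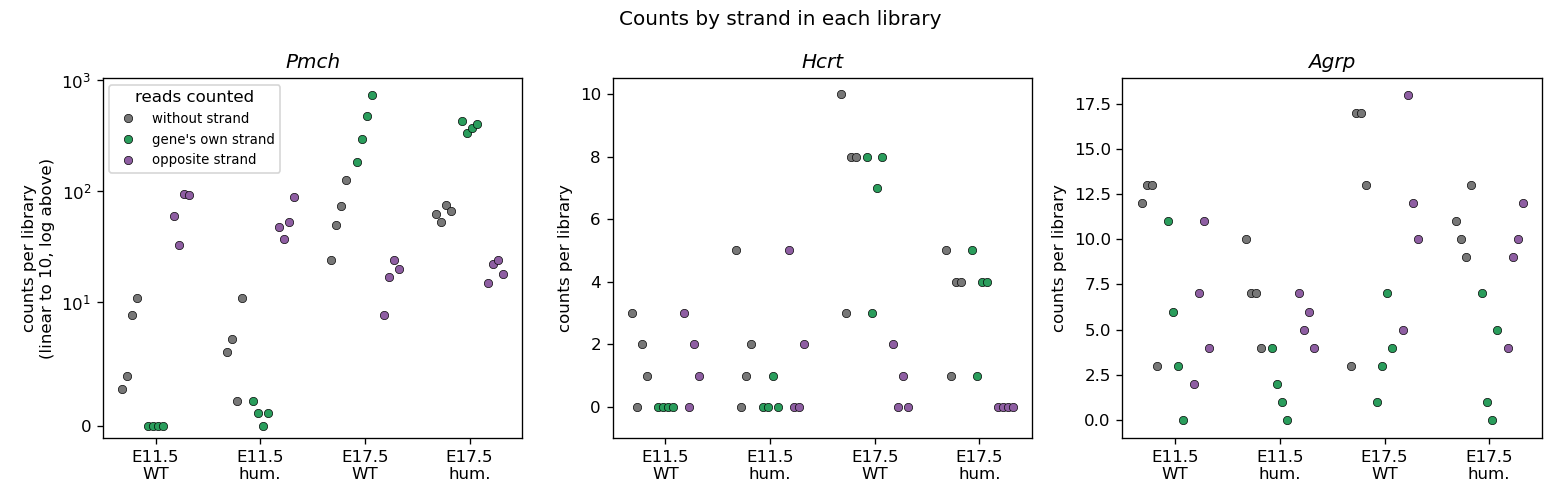
Counts per library over Pmch, Hcrt and Agrp, without strand, on the strand of the gene and on the opposite strand, with 1 point per replicate; the axis of Pmch is linear to 10 and logarithmic above, the others are linear. For Pmch the points of the gene's own strand go from 0 to 2 counts at E11.5 to between 182 and 738 at E17.5, while those without strand span 2 to 11 and 24 to 127.

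Levels of different genes were compared per length, as CPM per kilobase of exon (RPKM) on the gene's own strand at E17.5. The length was the union of annotated exons, 750 bases for Pmch and 3628 for Sst. The gene models of Sst, Agrp and Npy start upstream of the starts used here, and the order depends on such lengths. In CPM on the own strand, Pmch and Sst were close in the wild type (19.7 ± 9.29 and 19.2 ± 5.73, SD, n = 4 each). In the humanized mice they were at 22.1 and 13.7 CPM. In the wild type Pmch was highest with 26.3 RPKM ± 12.4, followed by Npy with 8.5 ± 2.62 (SD, n = 4 each). Sst (5.29), Trh (5.11), Avp (3.59), Pomc (2.49) and Crh (1.28) followed, and Hcrt (0.41), Oxt (0.316) and Agrp (0.189) were at the foot of the order. Only Pmch and Npy, and Crh and Hcrt, were neighbours whose 4 libraries did not overlap. In the humanized mice the order was Pmch (29.5), Npy (6.75), Trh (3.89), Sst (3.78), Avp (2.01), Pomc (1.5), Crh (1.11), Hcrt (0.262), Agrp (0.197) and Oxt (0.188). There the gaps from Pmch to Npy, Npy to Trh, Sst to Avp and Crh to Hcrt had no overlap between libraries. Without strand Npy led in both genotypes (8.78 and 6.98 RPKM), and in the wild type all neighbours then overlapped.

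**Figure D3:**
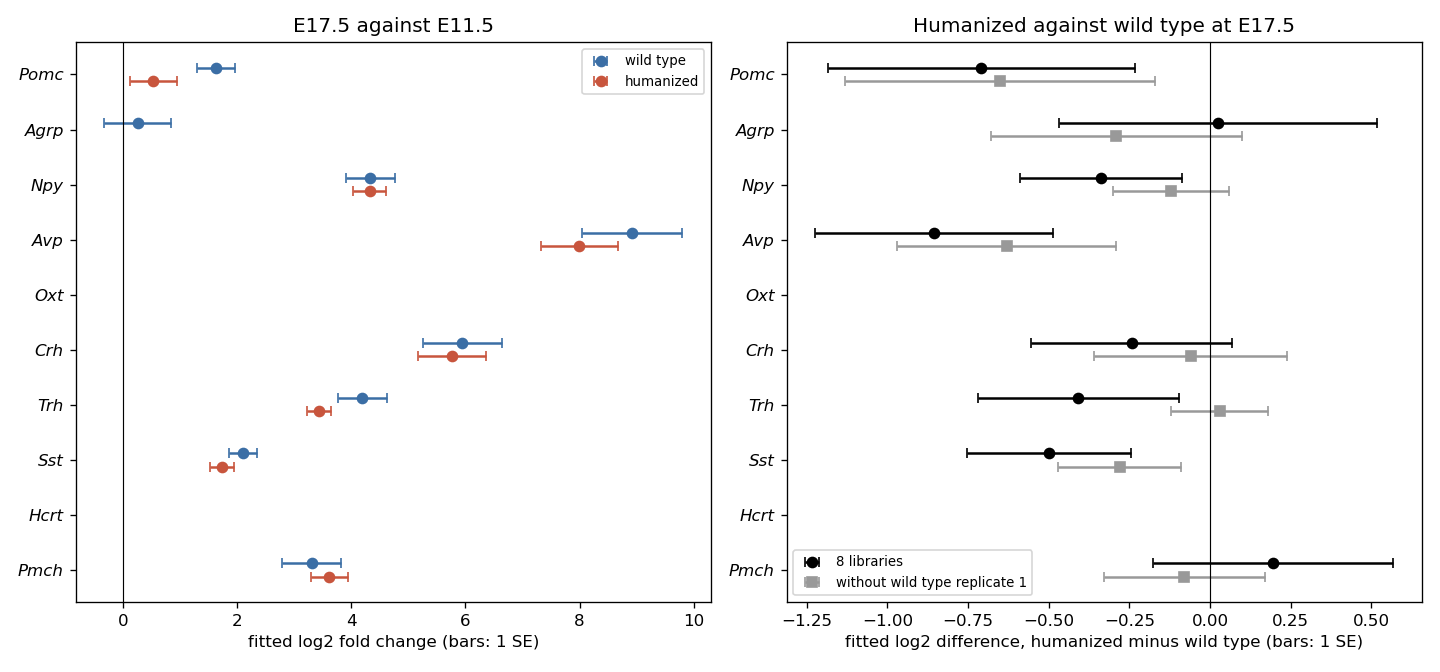
Fitted log2 differences (edgeR, counts without strand) with bars of 1 SE for the members that passed the filter: on the left E17.5 against E11.5 in each genotype, on the right humanized against wild type at E17.5 with all 8 libraries and without wild type replicate 1; Oxt and Hcrt were not tested in either, and the fitted stage values of Avp and Crh depend on the prior count because those genes had 0 to 2 reads at E11.5. On the left the points run upward from 0.26 (Agrp) and 0.53 (humanized Pomc), with all others at 1.63 or above, and on the right 6 of the 8 black points lie below 0.

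The spread between pools varied among the members and between the groups. As the SD of log2 CPM (prior count 2) over the 4 pools of a group, the median over the 10 members was 0.52 in the wild type and 0.41 in the humanized mice at E11.5, beside 0.25 and 0.24 over all 20234 genes. At E17.5 it was 0.55 and 0.29, beside 0.50 and 0.25. Genes of like level, within 0.5 of the member's mean log2 CPM, had larger SDs than all genes at E11.5. Their median SD there ran from 0.26 for the level of Sst to 0.59 for that of Hcrt in each genotype. The part of low counts in the spread of the members was not tested. The wild type value of all genes at E17.5 includes replicate 1, without which the median of the members was 0.341. A value of all genes without it is not given here. Pomc in the humanized mice at E17.5 had an SD of 0.93, larger than in 96.6% of 2034 genes of like level, and the pools ranged from 0.666 to 3.59 CPM. Sst and Pomc in the wild type at E11.5 had SDs of 0.11 and 0.17, smaller than most genes of like level, of which 8.33% and 7.3% had a smaller one.

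No member differed between the genotypes by the test. edgeR called 0 of 4 members tested at E11.5, 0 of 8 at E17.5 and 0 in the interaction of genotype and stage, and 0% of all genes tested in each of these comparisons. At an unadjusted p under 0.05 there were 1058, 207 and 1610 genes, and DESeq2 called 2, 1 and 0 genes and none of the members. At E11.5 the log2 difference, humanized minus wild type, was 0.38 for Pomc (SE 0.23), -0.34 for Npy (SE 0.51), 0.34 for Trh (SE 0.35) and -0.14 for Sst (SE 0.20), with a lowest adjusted p of 0.578. These intervals are wide, and 2 SE on either side run from -1.36 to 0.67 for Npy.

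At E17.5 the fitted difference was below 0 for 6 of the 8 members tested. Avp had the largest, with -0.85 (SE 0.37, 2 SE on either side from -1.59 to -0.12, edgeR adjusted p = 0.808), and was the 1 member with an unadjusted p under 0.05 (0.0406 by edgeR). Its mean was 2.95 CPM ± 1.25 in the wild type and 1.64 ± 0.345 in the humanized mice (SD, n = 4 each), and the groups overlapped through wild type replicate 2 at 1.25 CPM. The values of Pomc (-0.71, SE 0.48) and Sst (-0.50, SE 0.25) came next, each with an adjusted p of 0.808. Without wild type replicate 1 the differences shrank to -0.63 for Avp (unadjusted p = 0.0901 by edgeR), -0.65 for Pomc and -0.28 for Sst. Those of Npy, Crh and Trh went from -0.34, -0.24 and -0.41 to -0.12, -0.06 and 0.03. Agrp and Pmch, at 0.02 and 0.20 with all 8 libraries, were at -0.29 and -0.08 without it. The sign for Trh, Agrp and Pmch thus turned without the library that stood apart.

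H3K4me3, a mark of active and poised promoters, covered part of the 1 kb on either side of the start in both wild type replicates at E11.5 for 4 members, Npy, Crh, Trh and Hcrt, beside 63.5% of 21757 protein-coding genes. At E17.5 it did so in all 3 wild type replicates for 7 members, these and Agrp, Oxt and Sst, beside 63.6%. Sst had a weak peak in 1 replicate at E11.5 (3.33-fold over background) and peaks of 19.6, 11.8 and 16-fold at E17.5. Oxt had none in the wild type at E11.5 and 5.23, 4.44 and 6.24-fold at E17.5. The peaks of Npy (16.3 and 13.4-fold, then 17.8, 18.6 and 14.1-fold) and Trh (9.97 and 13.7-fold, then 10.8, 14.1 and 15.6-fold) overlapped in height between the stages. The peaks called at Agrp are centred about 2 kb past its start (2164 to 2426 bases in the wild type), beyond the 3′ end of the gene, nearest to the starts of Atp6v0d1 and Gm38250. In the wild type at E11.5 the peak reached the window in 1 of 2 replicates, at 57.3-fold, against 44.6, 61.4 and 54.5-fold at E17.5. Pomc, Avp and Pmch had no H3K4me3 peak in every replicate at either stage in the wild type.

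H3K27ac, found at active promoters and enhancers, was absent from the starts of all 10 members in both wild type replicates of E11.5, beside 47.3% of all genes with a peak in both. At E17.5 it was present in all replicates at Npy (2.94, 3.17 and 4.27-fold) and Hcrt (8.06, 5.53 and 12.1-fold), beside 57.0% of all genes. The peak at Hcrt is centred 1054 to 1215 bases past the start. Within 50 kb of the start, outside the promoter window, Pomc had 3 and 1 H3K27ac peaks in the wild type replicates of E11.5, then 7, 8 and 10 in those of E17.5. Sst had none and then 1, 1 and 2. Avp had 3 and 2 and then 2, 2 and 2, and Oxt had 1 in every wild type replicate of both stages. Agrp had 4 and 5 and then 4, 6 and 6, and Hcrt had 6 and 2 and then 4, 7 and 6. Npy had 1 and 1 and then 1, 4 and 3, and Trh had 1 and 1 and then 1, 2 and 2. Crh and Pmch had none at either stage in either genotype. The median over protein-coding genes was 1 in each replicate of E11.5 and 2, 2 and 3 in those of E17.5, and the lists themselves were longer at E17.5 (62720 to 77419 peaks in the wild type, against 32418 and 36150).

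H3K27me3, the mark of Polycomb repression, was found at most of the members at both stages. It was present in every wild type replicate at 7 members at E11.5, Pomc, Npy, Avp, Oxt, Crh, Trh and Sst, beside 19.4% of all genes, and at the same 7 at E17.5, beside 19.1%. In wild type RNA, Oxt was not tested and the other 6 were among the members called higher at E17.5, beside 29.0% of all genes tested, with Avp and Crh passing the filter only through their E17.5 libraries. A single broad peak spanned both Avp and Oxt, 10874 and 9668 bases long at E11.5 (20.8 and 17.9-fold) and 10495, 9959 and 9212 bases long at E17.5 (18.5, 13.7 and 14.7-fold). Agrp and Pmch had no H3K27me3 within 5 kb of the start in any library.

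The span of H3K27me3 around the start grew between the stages at several genes whose RNA rose. At Npy it covered 63.5% and 54.3% of the 5 kb on either side of the start in the wild type replicates of E11.5, and 91.5%, 98.5% and 96.5% in those of E17.5. At Crh it covered 22.2% and 19.7% and then 45.9%, 41.4% and 39.1%. At Sst it covered 33.6% and 30.9% and then 61.4%, 55.9% and 52.0%. Trh went the same way, from 43.0% and 30.1% to 71.4%, 63.0% and 61.5%, and in these 4 genes the wild type replicates of the stages did not overlap. In the humanized mice the stages overlapped at Trh, with 49.3% and 61.8% and then 66.4%, 61.3% and 57.0%. At Pomc, also called higher in the wild type, the wild type stages overlapped, with 58.3% and 29.3% and then 77.5%, 50.5% and 61.8%. At Hcrt the cover was lower at E17.5, at 15.2%, 11.9% and 16.8% after 27.6% and 25.9%. Avp and Oxt showed no such shift, with 68.5% and 58.0% and then 65.5%, 58.5% and 60.7% at Avp. The lists of E17.5 held more peaks in all, 27452 to 43700 in the wild type against 13850 and 19166, and the part of list length in this was not tested.

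**Figure D4:**
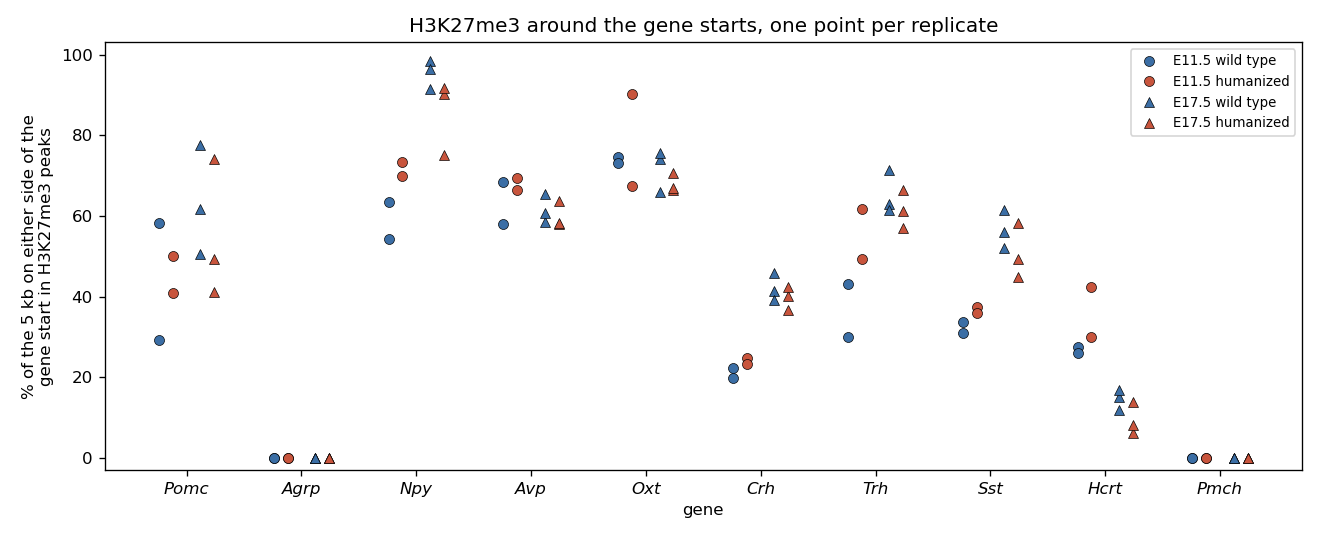
Share of the 5 kb on either side of each gene start that lies in H3K27me3 peaks, in percent, with 1 point per replicate (2 per genotype at E11.5, 3 at E17.5). Npy, Crh and Sst have higher points at E17.5 than at E11.5 in both genotypes, Trh in the wild type alone, Hcrt has lower ones, and Agrp and Pmch are at 0 throughout.

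H3K4me3 and H3K27me3 were found together in every wild type replicate at Npy, Crh and Trh at E11.5, 3 members beside 17.7% of all genes. At E17.5 Oxt and Sst joined them, 5 members beside 16.3%. Pooled tissue cannot tell both marks on the same chromatin from each mark in other cells. Avp carried H3K27me3 and no other peak in any wild type replicate, and Hcrt carried H3K4me3 without H3K27me3. Pomc carried H3K27me3 in every wild type replicate, with a weak H3K4me3 peak in 1 of the 3 replicates of E17.5 (3.97-fold) and weak CTCF peaks in 2 of them (3.38 and 3.95-fold). Pmch had no peak of any mark.

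CTCF, an insulator protein, was mapped at E17.5 alone and had a peak in every wild type replicate at 3 members, Npy, Crh and Hcrt, beside 33.6% of all genes. The peak at Npy was weak (5.26, 4.15 and 5.38-fold). That at Crh was 72.7, 58.6 and 69.7-fold over background, higher than 99.7% to 99.9% of all CTCF peaks, and 1362 to 1400 bases long, against medians of 388 to 404. Its summit lay in the coding sequence of Crh, 1419 to 1429 bases past the start. That at Hcrt was 30.2, 42.8 and 33.2-fold with a summit in coding sequence 982 to 1012 bases past the start. The 61 bases around a summit of each are shown to compare the 2 sites, from 5′ to 3′ on the strand of the gene, at chr3:19748202-19748262 (Crh, minus strand) and chr11:100652750-100652810 (Hcrt, minus strand), with the CTCF core letters AGNGGGC in capitals where found.
Crh: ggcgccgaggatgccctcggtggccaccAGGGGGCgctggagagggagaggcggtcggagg
Hcrt: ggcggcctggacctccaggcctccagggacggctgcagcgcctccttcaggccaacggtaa
The window of Crh held the core AGGGGGC, and that of Hcrt held none on either strand. Among all CTCF peaks, 24.8% to 25.9% held the core in the same length around the summit. The H3K4me3 peaks of both genes were centred inside the gene as well, 746 to 1012 bases past the start at Crh (23.0 and 22.4-fold at E11.5, then 37.0, 45.6 and 27-fold) and 1005 to 1113 bases past it at Hcrt (21.6 and 18.7-fold, then 27.1, 25.8 and 27.8-fold).

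**Figure D5:**
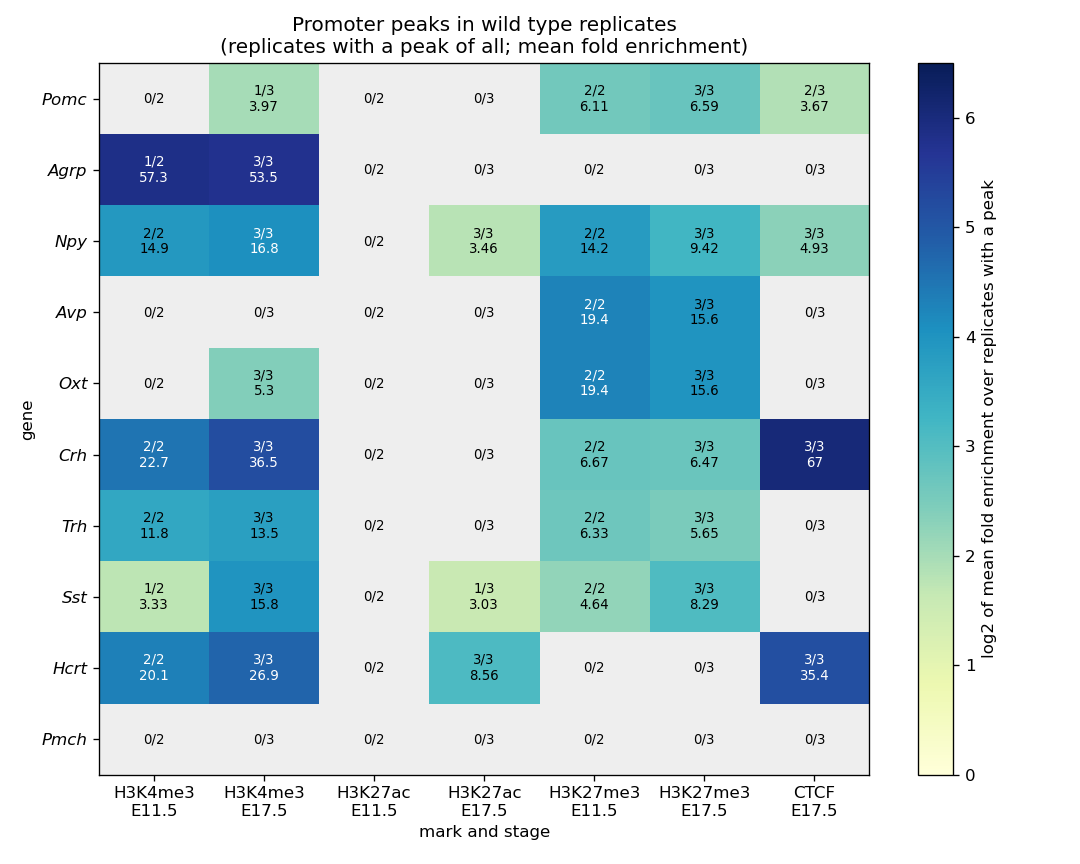
Peaks within 1 kb of the gene start in the wild type: each cell gives the replicates with a peak of all replicates and, below, the mean fold enrichment over background in those replicates, with the colour as its log2; grey cells have none. H3K27me3 stands at 7 genes at both stages, Crh has the highest CTCF cell (67), and the line of Pmch is empty.

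Most promoter peaks were shared by the genotypes. Of 70 combinations of member, mark and stage, 28 had one in all replicates of either genotype and 33 in none. In 2 a peak was in every wild type replicate but not in every humanized one, Npy H3K27ac and Oxt H3K4me3 at E17.5, each with a peak in 2 of the 3 humanized replicates. In 2 others it was in every humanized replicate only, Agrp and Oxt H3K4me3 at E11.5. The Agrp peak, centred outside the window, was 60.1 and 54.1-fold in the humanized replicates and 57.3-fold in the 1 wild type replicate in which it reached the window. Oxt H3K4me3 at E11.5 was 5.09 and 4.41-fold in the humanized replicates, against no peak in the wild type. With 2 or 3 replicates these differences were not tested.

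The receptors of the members were called higher at E17.5 in the wild type for 15 of the 16 tested, with a median log2 change of 3.48, beside the 29.0% of all genes given above. Only 5 of the 21 receptor genes passed the filter on the E11.5 libraries alone, so most passed through E17.5, and the fitted values of those near 0 at E11.5 depend on the prior count. Trhr, the receptor of thyrotropin-releasing hormone, went from at most 0.102 CPM in the wild type at E11.5 to between 1.98 and 4.59 CPM at E17.5, a fitted log2 rise of 6.74 (SE 0.68), and that of Npy2r was 5.99 (SE 0.50). The receptor Npy1r rose by 2.26, Npy5r by 4.66, Avpr1a by 3.39, Oxtr by 3.56, Crhr1 by 4.60, Crhr2 by 3.25, Hcrtr1 by 5.47, Hcrtr2 by 3.81 and Mchr1 by 3.76, all on the log2 scale. Of the 5 somatostatin receptors 4 were called, from 1.17 for Sstr2 to 3.40 for Sstr1. Mc4r, the melanocortin receptor on which the peptides of Pomc and Agrp compete, had 0.53 (SE 0.55, adjusted p = 0.432 by edgeR) and was not called. Mc3r, Avpr1b, Avpr2, Trhr2 and Sstr5 were too low to be tested.

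Of 20 genes of precursor processing and granules, all tested, 14 were called higher at E17.5 in the wild type, beside 29.0% of all genes tested, and none lower, with a median log2 change of 1.87. The other 6 were Pam, Ctsl, Tpst1, Tpst2, Prcp and Sytl4, all with fitted values below 0. Scg2, a granin of dense-core granules, went from 8.35 CPM ± 1.77 to 333 ± 39.9 in the wild type (SD, n = 4 each), a log2 change of 5.30 (SE 0.24). Chgb, another granin, rose by 2.88. The prohormone convertases Pcsk1 and Pcsk2 rose by 2.75 and 1.90, while Pam, which amidates peptides, was at -0.21 and was not called. Of 36 other neuropeptide precursors, 16 could be tested and 9 were called higher, beside 29.0% of all genes tested. Only 13 of the 36 passed the filter on the E11.5 libraries alone, so this number is an account and not a measure. The largest fitted changes were those of Npvf, of RFamide-related peptides, and Nts, of neurotensin (log2 change 6.59, SE 0.48). Npvf was at 0 in all libraries of E11.5 and at 0.923 to 2.04 CPM in the wild type at E17.5. Nts was at most 0.162 CPM in the wild type at E11.5, and the fitted values of both depend on the prior count. The 1 precursor called lower was Cartpt, of the feeding-related CART peptides, which fell from 10.5 CPM ± 3.58 to 3.86 ± 1.14 (SD, n = 4 each).

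Among 8 binding proteins and breakdown enzymes, all tested, Trhde, which degrades thyrotropin-releasing hormone, rose by 4.12 (SE 0.42) and Dpp4 by 2.03 (SE 0.39), and the median of the list was -0.19. The other 6, with Crhbp at -0.18, were not called. Transcription factors known from peptidergic neurons went both ways, with 8 of 15 tested called higher and 6 lower, beside 29.0% and 26.7% of all genes. Isl1, which is needed by Pomc neurons, rose by 3.62 and Lhx6 by 2.09, whereas Gsx1 was lower by 2.60 and Rfx4 by 2.33 on the log2 scale. Otp, which is needed by neurons that make Avp, Oxt, Crh and Trh, rose by 1.51 and Sim1, of the same neurons, was at 0.67 and was not called. Over all genes the median log2 change was near 0 (-0.0147 in the wild type). In the humanized libraries 38.2% of all genes tested were called higher, and the share called lower there is not given here. Beside this, 10 precursors were called higher and 2 lower of 18, and 14 processing genes higher and 3 lower of 20. For receptors it was 14 higher of 15. For binding and breakdown genes it was 3 higher and 2 lower of 8, and for factors 9 higher and 6 lower of 15. The limit set by the filter on low counts applies to precursors and receptors here too. No gene of these lists was called between the genotypes.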

How the data were processed

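Per the labels and the study's methods, poly(A) RNA and ChIP libraries were read as paired ends, and the submitters' processing notes name STAR 2.7.9a, Bowtie2 2.4.2 and MACS2 2.2.7.1 with mm39 (GRCm39). The authors deposited read counts per gene, with GENCODE release 31, without strand (column 2) and for each strand (column 4 is the gene's own). The peak lists that the authors deposited, called per replicate, give a fold enrichment over background and −log10 p and q values. Reads of humanized samples were aligned to mm39 with the human sequence in the replaced locus, and duplicates were removed. Peaks of H3K27me3 came in the broad format, with settings not given in the sources used here. The H3K27ac antibody is described as also binding acetylated H2B.

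Reads not assigned to a single gene for any reason, those that overlapped more than 1 gene among them, were 48.1% to 58.4% per library and were left out. Gene names and positions came from GENCODE release 39, which matched 98.8% of the IDs. Counts without strand passed filterByExpr, were scaled by TMM factors and went into the quasi-likelihood test of edgeR 4.0.16 (limma 3.58.1, R 4.3.3), with Benjamini-Hochberg adjustment over all genes tested and a threshold of 0.05. Genotype comparisons and stage comparisons were fitted on their own 8 libraries, the interaction on 16. Genes under the filter were compared by exact permutation. Floors were 3 counts over a group. RPKM used the union of annotated exons on the gene's own strand. A promoter peak is 1 bp or more of overlap with 1 kb on either side of the start. The scripts were tested on simulated data. DESeq2 1.42.0, RLE factors, no filter, the strand column, a fit of all 16 libraries, the replicate block, other windows and q limits, and leaving out each replicate were alternatives. Sequences, motif searches and overlaps used Python 3.11.15, numpy 2.4.6, pandas 2.3.3, scipy 1.17.1 and pysam 0.24.0. Figures used matplotlib 3.10.9.

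Besides the 10 members, the named genes are the receptors of the members, the 2 called genes of each list with the largest rise and fall in the wild type, and for likeness the 2 genes nearest each member. Pcsk1, Pcsk2, Pam, Ctsl, Tpst1, Tpst2, Prcp, Sytl4, Crhbp, Otp, Sim1 and Tbx19 were named after their values were seen. The members and lists were chosen with earlier results of these data known. The 24 input samples were not analysed here. Some pituitary markers and an upstream sequence are not reported here.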

Additional observations from a re-analysis of the deposited data

Results flagged for a closer look

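In 37 groups of 4 libraries, the gap between the outermost library and its nearest neighbour was compared with the range of the group, and chance alone passes Dixon's limit for 4 values in about 1 in 20 groups. It passed in 5. The highest humanized library of Pomc at E11.5 (1.57 CPM) had a ratio of 0.867. The lowest wild type library of Agrp at E11.5 (0.121 CPM) had 0.869 and rested on 3 counts without strand and 0 on the strand of Agrp. Crh at E11.5 had a ratio of 1 in both genotypes, since 2 reads fell in a single library of each (0.101 CPM in the wild type, 0.0819 CPM in the humanized mice) and none in the others. The highest wild type library of Trh at E17.5, replicate 1, reached 18 CPM with a ratio of 0.949, and this is the library that stood apart.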

How the results depend on the processing

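Of 238 alternatives of summary values, 219 left the call or value as it was, and of 578 alternatives of single members 554 did. Between the stages no called member lost its call in any alternative, while Hcrt in the wild type (DESeq2, no filter), Oxt in the humanized mice (no filter) and Agrp in the humanized mice (without replicate 1 of E11.5 or replicate 3 of E17.5) gained one. Members called were 7 in the wild type and 6 to 7 in the humanized mice without 1 library. For the log2 changes that turned sign, leaving out 1 library gave -0.12 to 0.57 for Agrp between the stages in the wild type, -0.03 to 0.81 for Pomc in the humanized mice, and, humanized minus wild type, -0.75 to 0.20 for Npy at E11.5, -0.29 to 0.30 for Agrp, -0.53 to 0.03 for Trh and -0.08 to 0.56 for Pmch at E17.5. In the interaction it gave -0.55 to 0.39 for Npy and -2.48 to 2.06 for Crh. There Npy was at 0.01 with DESeq2 and with RLE factors and at 0.03 with library size alone, and Pmch at -2.89 in the strand column, where E11.5 had 0 to 2 counts. Other precursors called went from 10 to 16 with DESeq2 and with no filter (11 to 14 without 1 library), and binding and breakdown genes from 2 to 4 in the fit of all 16 libraries and to 5 without wild type replicate 1 of E17.5 (2 to 5). The median SD of the members at E11.5 was 0.793 with a prior count of 0.5 in the wild type, and without 1 library 0.343 (without replicate 4) to 0.472 there and 0.288 to 0.435 in the humanized mice. At E17.5 it was 0.341 (without replicate 1) to 0.652 and 0.234 to 0.320. H3K27ac at E11.5 went from 0 members to 1, Agrp, with 2.5 kb on either side or with the 5′ end of the gene model as start (chosen after the data had been seen). At E17.5 it went from 2 to 1 with a −log10 q of at least 5 or 500 bp, and CTCF from 3 to 1 with 500 bp and 7 with 2.5 kb. The median number of H3K27ac peaks near the members went from 1 to 0.25 within 20 kb at E11.5, and from 1.83 to 1 within 20 kb or with a −log10 q of at least 5 at E17.5. The median H3K27me3 cover went from 34.4% to 63.2% at E11.5 and from 59% to 86.7% at E17.5 with 2.5 kb. With the replicate block, 7 members were called in the wild type and 6 in the humanized mice between stages and 0 between genotypes, as without it. Deviations of same-numbered libraries correlated at -0.45 to 0.294 between the stages in the wild type, -0.167 to 0.267 in the humanized mice, and, between the genotypes, 0.033 to 0.108 at E11.5 and 0.051 to 0.484 at E17.5, where 3 of the 4 were above 0.1. In no comparison were all 4 above 0.1, and the numbers were not taken to pair the samples. The causes of these moves were not tested. Levels of a few reads (Oxt, Hcrt, Agrp, and Avp, Crh and Pmch at E11.5) limit what can be said of those genes.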

Other observations

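For each member that averaged at least 1 CPM at E17.5, the genes whose log2 CPM followed it most closely over the 8 libraries of E17.5, both genotypes together, were named by the smallest root mean square difference after centring. Genes whose SD over those libraries was well below that of the member were left out beforehand. From 10343 (Pomc) to 18681 (Crh) candidates remained per member, and how close a match so many give by chance was not tested. For Pomc these were Clec4a1 (0.26) and Gm28901 (0.27), for Npy Tm2d3 (0.05) and Npm3 (0.06), and for Avp Lgals3bp (0.20) and Gpr37l1 (0.21). For Crh they were Zdhhc4 (0.09) and Zfp575 (0.09), for Trh Iglon5 (0.03) and Dhx16 (0.05), for Sst Noc4l (0.07) and Uchl1 (0.07), and for Pmch Gm56718 (0.13) and Gm48557 (0.13). No member was among the nearest genes of another. Without wild type replicate 1, a setting chosen after the data had been seen, 2 of these 14 genes were named again, Clec4a1 and Gm28901, both for Pomc. The other 12 were not.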
